A study of Rattus norvegicus with 30 samples.

Results

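The genes described here are 10 surfactant and alveolar type II cell genes of the lung: the surfactant proteins Sftpa1, Sftpb, Sftpc and Sftpd, the lamellar body genes Abca3 and Lamp3, the proteases Napsa and Ctsh, the phosphate transporter Slc34a2 and the transcription factor Etv5. They were chosen by symbol, and probes were assigned to them through the transcript accession in the array files. Of the 10 genes, 9 had a matched probe and all 9 passed the filter on dim probes, among 18421 genes tested. Abca3 was not analysed here. The 9 genes had 10 of the 30367 probes, because Etv5 had 2 and every other gene had 1.

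The lungs came from 30 adult male Wistar Unilever rats (strain HsdCpb:WU, 8 weeks old when obtained) that breathed copper oxide nanoparticles or air, nose only, on 5 days in a row. Doses were 3.3 mg/m3 (low) and 13.2 mg/m3 (high), each as a 6-h equivalent per day, and controls breathed air alone. Lungs were taken 1 day (day 6) or 22 days (day 28) after the last exposure, which gave 6 groups of 5 rats. RNA of each lung, labelled with Cy5, shared an array with a common reference RNA labelled with Cy3, which one label field calls a rat pool and another a mouse pool.

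Surfactant is the film of phospholipid and protein that lowers surface tension in the alveoli. Alveolar type II cells make it, store it in lamellar bodies and secrete it, and they also divide to replace type I cells after injury. SP-B and SP-C, the small hydrophobic surfactant proteins, are cut from longer precursors inside the cell, whereas SP-A and SP-D are large collectins of innate defence.

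The 4 stretches printed here are the 250 bases before the RefSeq transcription start (build GRCr8). They belong to Sftpa1 and Sftpb, of which the first passed and the second did not in the lung channel (the difference between them was not tested), to Ctsh, which had the largest difference of the 9 genes, and to Etv5, the gene that fell. Capitals mark matches to CTCAAG (NKX2-1 type) or TGTTTAC (FOXA) on either strand. TTGCAA (C/EBP type) and CCGGAAG (ETS) were also searched on both strands. Sequences were found for 7 of the 10 genes.

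Sftpa1, chr16:17042014-17042263, plus strand: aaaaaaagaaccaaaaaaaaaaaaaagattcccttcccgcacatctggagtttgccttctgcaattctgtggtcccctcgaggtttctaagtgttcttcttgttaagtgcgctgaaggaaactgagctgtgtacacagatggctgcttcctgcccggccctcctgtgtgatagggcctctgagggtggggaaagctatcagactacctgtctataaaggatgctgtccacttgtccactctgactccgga

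Sftpb, chr4:105917338-105917587, plus strand: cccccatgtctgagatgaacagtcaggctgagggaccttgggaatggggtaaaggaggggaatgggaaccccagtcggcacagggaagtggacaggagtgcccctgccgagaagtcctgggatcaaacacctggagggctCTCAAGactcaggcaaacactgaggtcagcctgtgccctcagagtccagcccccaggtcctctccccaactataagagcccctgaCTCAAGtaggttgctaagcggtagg

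Ctsh, chr8:99488506-99488755, plus strand: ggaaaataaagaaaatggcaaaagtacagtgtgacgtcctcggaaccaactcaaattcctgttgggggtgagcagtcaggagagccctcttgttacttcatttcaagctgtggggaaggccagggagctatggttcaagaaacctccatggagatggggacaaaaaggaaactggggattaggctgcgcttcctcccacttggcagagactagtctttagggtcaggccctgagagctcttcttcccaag

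Etv5, chr11:92113013-92113262, plus strand: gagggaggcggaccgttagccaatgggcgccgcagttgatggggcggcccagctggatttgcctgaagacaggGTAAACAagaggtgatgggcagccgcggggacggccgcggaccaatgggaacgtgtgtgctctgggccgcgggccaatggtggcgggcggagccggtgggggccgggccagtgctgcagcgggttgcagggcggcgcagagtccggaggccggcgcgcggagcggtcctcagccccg

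The Sftpb stretch held CTCAAG at 2 places, beginning 110 and 25 bases before the start. The Etv5 stretch held TGTTTAC on the minus strand, 177 bases before the start at its far end. The 4 motifs had no match in the Sftpa1, Lamp3, Ctsh, Slc34a2 or Abca3 stretch, and no match overlapped another. Over the same 250 bases of 33469 promoters, 13.3% held CTCAAG, 3.21% held TGTTTAC, 5.08% held TTGCAA and 7.27% held CCGGAAG. A match describes letters and not a bound site.

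All 9 genes were well above background in the lung channel on all 30 arrays, and the scanner software flagged none of their spots as saturated. Sftpc, the gene of SP-C and the marker most specific to type II cells, was the brightest gene on all 30 arrays. Whether signals this bright were compressed was not tested. In the reference channel Lamp3 was well above background on 12 of 30 arrays and Slc34a2 on 24, and each of the other genes was on all 30. Each level given here is the log2 ratio of lung to reference signal for 1 gene unless the lung channel is named, and levels are not compared between genes. Values of a group are listed by animal number.

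Median lung intensity ranged from 216 to 432 across arrays, 59.5% to 68.4% of probes were well above background, and replicates of a group correlated at 0.918 to 0.982. The authors' deposited log2 ratios correlated at 0.997 to 1.000 with loess ratios computed without background correction. Day-6 air rat 4 stood apart, with a mean log2 ratio of 8 heart muscle markers of 4.87 against 0.61 in the next air rat of that day, and low-dose rat 49 of day 6 had 2.74. At day 28 the highest means were 1.87 in low-dose rat 54 and 1.97 in high-dose rat 83, against -0.17 and 0.22 in the next rats of their groups. Without air rat 4 of day 6 the 9 genes gave 3 higher and 1 lower at the high dose on that day, and 2 higher and 1 lower at the low dose. Over all 18421 genes, leaving out single rats gave 5821 to 6478 calls at the high dose and 869 to 1442 at the low dose.

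On the ratio, the high dose changed 4 of the 9 genes at day 6: Ctsh, Napsa and Lamp3 rose and Etv5 fell (limma across all genes, Benjamini-Hochberg adjusted p under 0.05). Over all genes tested, 36.5% passed in this comparison, 21.1% higher and 15.4% lower. The groups did not overlap for the same 4 genes, as for 27.8% of all genes. Of the genes that passed, 57.7% were higher on this scaling, 47.7% in the lung channel alone, 46.1% in the authors' deposited values, 43.6% after median centring and 49.1% with the scanner software's processed signals. The median difference was 0.35 for the 9 genes and 0.01 for all genes. In whole lung, fewer cells of a type and less RNA per cell cannot be told apart.

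**Figure D1:**
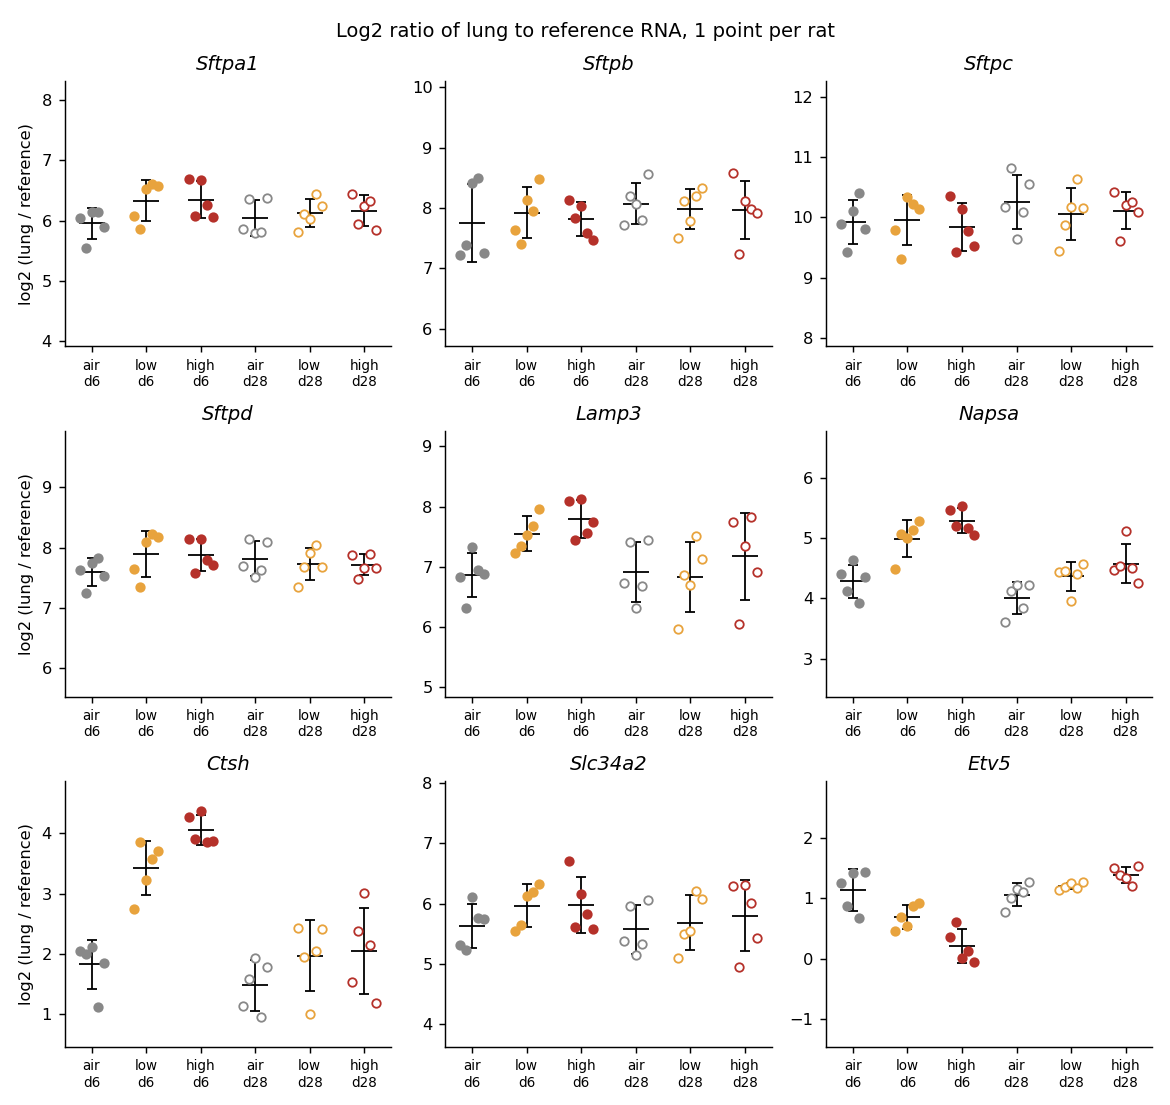
Log2 ratio of lung to reference signal (y axis) of 9 genes in the 6 groups (x axis; d6 is day 6 and d28 is day 28), with 1 point per rat and bars for the group mean and SD; all panels span the same number of log2 units. Ctsh at the high dose on day 6 lies between 3.85 and 4.36, above the air rats at 1.11 to 2.12, and Etv5 lies between -0.06 and 0.61, below the air rats at 0.68 to 1.44.

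Ctsh encodes cathepsin H, a protease that trims the SP-B and SP-C precursors. Its log2 ratios at day 6 were 2.05, 2.00, 2.12, 1.11 and 1.84 in air, 2.74, 3.86, 3.23, 3.57 and 3.71 at the low dose and 4.27, 3.91, 4.36, 3.85 and 3.86 at the high dose. Both dosed groups lay wholly above air, and the high-dose group lay almost wholly above the low-dose group, with 1 low-dose rat inside its range. Ctsh rose by 2.23 ± 0.29 (SE, n = 5 and 5; 4.68-fold, adjusted p = 7.59e-07, limma) at the high dose and by 1.59 ± 0.29 (3.02-fold, adjusted p = 0.000532) at the low dose. The difference between doses, 0.63 ± 0.29, did not pass (adjusted p = 0.177).

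Napsa encodes napsin A, an aspartic protease that takes part in the cutting of the SP-B precursor. Its log2 ratios at day 6 were 4.41, 4.12, 4.63, 3.93 and 4.35 in air, 4.49, 5.07, 5.00, 5.14 and 5.27 at the low dose and 5.47, 5.20, 5.54, 5.16 and 5.06 at the high dose. The high-dose rats were all above the air rats, and the lowest low-dose rat fell inside the air range. Napsa rose by 1.00 ± 0.16 (2.00-fold, adjusted p = 1.97e-05, limma) at the high dose and by 0.71 ± 0.16 (1.63-fold, adjusted p = 0.00596) at the low dose, a call that was lost after median centring (0.67, adjusted p = 0.0814). Across the 30 rats the ratios of Napsa and Ctsh had r = 0.95, and their deviations from the group means had r = 0.87. These points share arrays and scaling, and in the lung channel alone the same values were 0.93 and 0.81.

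Lamp3 encodes a membrane protein of lamellar bodies, which mature dendritic cells also make. Its log2 ratios at day 6 were 6.83, 6.32, 7.34, 6.96 and 6.88 in air, 7.22, 7.34, 7.53, 7.68 and 7.96 at the low dose and 8.09, 7.45, 8.13, 7.56 and 7.74 at the high dose. The high-dose group did not overlap with air, and the low-dose group did. Lamp3 rose by 0.93 ± 0.29 (1.91-fold, adjusted p = 0.0121, limma) at the high dose, and the low-dose difference of 0.68 ± 0.29 did not pass (adjusted p = 0.165). In a fit of only the groups compared, the low-dose difference passed (adjusted p = 0.0422, limma). With the scanner software's processed signals in place of both the background correction and the loess normalization used here, the high-dose difference was -0.09 (adjusted p = 0.664, limma). The Lamp3 reference signal was well above background on 12 of 30 arrays.

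Etv5 encodes an ETS transcription factor that acts below fibroblast growth factor signalling and, in mice, maintains type II cell identity. Its log2 ratios at day 6 were 1.26, 0.88, 1.43, 0.68 and 1.44 in air, 0.45, 0.69, 0.54, 0.87 and 0.92 at the low dose and 0.37, 0.61, 0.02, 0.12 and -0.06 at the high dose. Every high-dose rat lay below every air rat, and the low-dose rats lay between, overlapping both. Etv5 fell by 0.93 ± 0.14 (1.90-fold lower, adjusted p = 3.94e-06, limma) at the high dose and by 0.44 ± 0.14 (1.36-fold lower, adjusted p = 0.0457) at the low dose. Its second, dimmer probe gave -0.56 ± 0.15 (adjusted p = 0.0038, limma) and -0.35 ± 0.15 (adjusted p = 0.166), and on that probe both dosed groups overlapped with air. The low-dose call was lost when low-dose rats 47, 48 or 49 or air rats 1, 3 or 5 were left out singly, with adjusted p from 0.0891 to 0.156.

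At the low dose on day 6, 3 of the 9 genes passed on the ratio, Ctsh and Napsa higher and Etv5 lower, against 6.72% of all genes (4.97% higher, 1.75% lower). Only the Ctsh groups did not overlap, as in 7.57% of all genes. Between the doses, Etv5 alone passed, 0.48 lower at the high dose (adjusted p = 0.0174, limma), where 11.9% of all genes passed and 3.87% were lower. Its second probe gave -0.21 ± 0.15 (adjusted p = 0.441). After median centring 1 of the 9 genes passed at the low dose (3.11% of all genes) and none between the doses (5.47% of all genes). The Etv5 call between the doses was lost without high-dose rats 77 or 79 or low-dose rats 50 or 51, with adjusted p from 0.0524 to 0.0716. The phosphate transporter Slc34a2 and the surfactant proteins were not called on the ratio at either dose without a slide term, and with the slide as a block Sftpa1, Sftpd and Slc34a2 passed at the high and Sftpa1 at the low dose.

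The surfactant proteins and Slc34a2 differed from air as follows at the high dose on the ratio. Sftpa1 differed by 0.39 ± 0.17 (adjusted p = 0.0738, limma; 0.46 and 0.0475 without high-dose rat 76), Sftpd by 0.28 ± 0.17 (0.191) and Slc34a2 by 0.35 ± 0.27 (0.323). Sftpb differed by 0.05 ± 0.26 (95% confidence interval -0.48 to 0.58) and Sftpc by -0.08 ± 0.24 (-0.57 to 0.41), intervals wide enough to hold differences of either sign. The reference channel and the slide moved with these values, as the channel and slide readings show.

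In the lung channel alone, scaled by quantiles, the high dose at day 6 changed 7 of the 9 genes, with Sftpa1, Sftpd, Lamp3, Napsa, Ctsh and Slc34a2 higher and Etv5 lower, against 39.1% of all genes (18.7% higher, 20.4% lower). None of these 7 overlapped with air, as in 27.8% of all genes. The same 7 passed at the low dose, where 9.08% of all genes did (5.74% higher, 3.34% lower), and 6 of them did not overlap with air, as in 8.36% of all genes. The median difference of the 9 genes was 0.62 at the high and 0.50 at the low dose, and that of all genes was -0.03 and -0.01. Scaled to the 75th percentile of each array in place of quantiles, the high dose gave 7 genes (30.5% of all genes) and the low dose 6 (5.73% of all genes), where Etv5 did not (adjusted p = 0.0622).

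**Figure D2:**
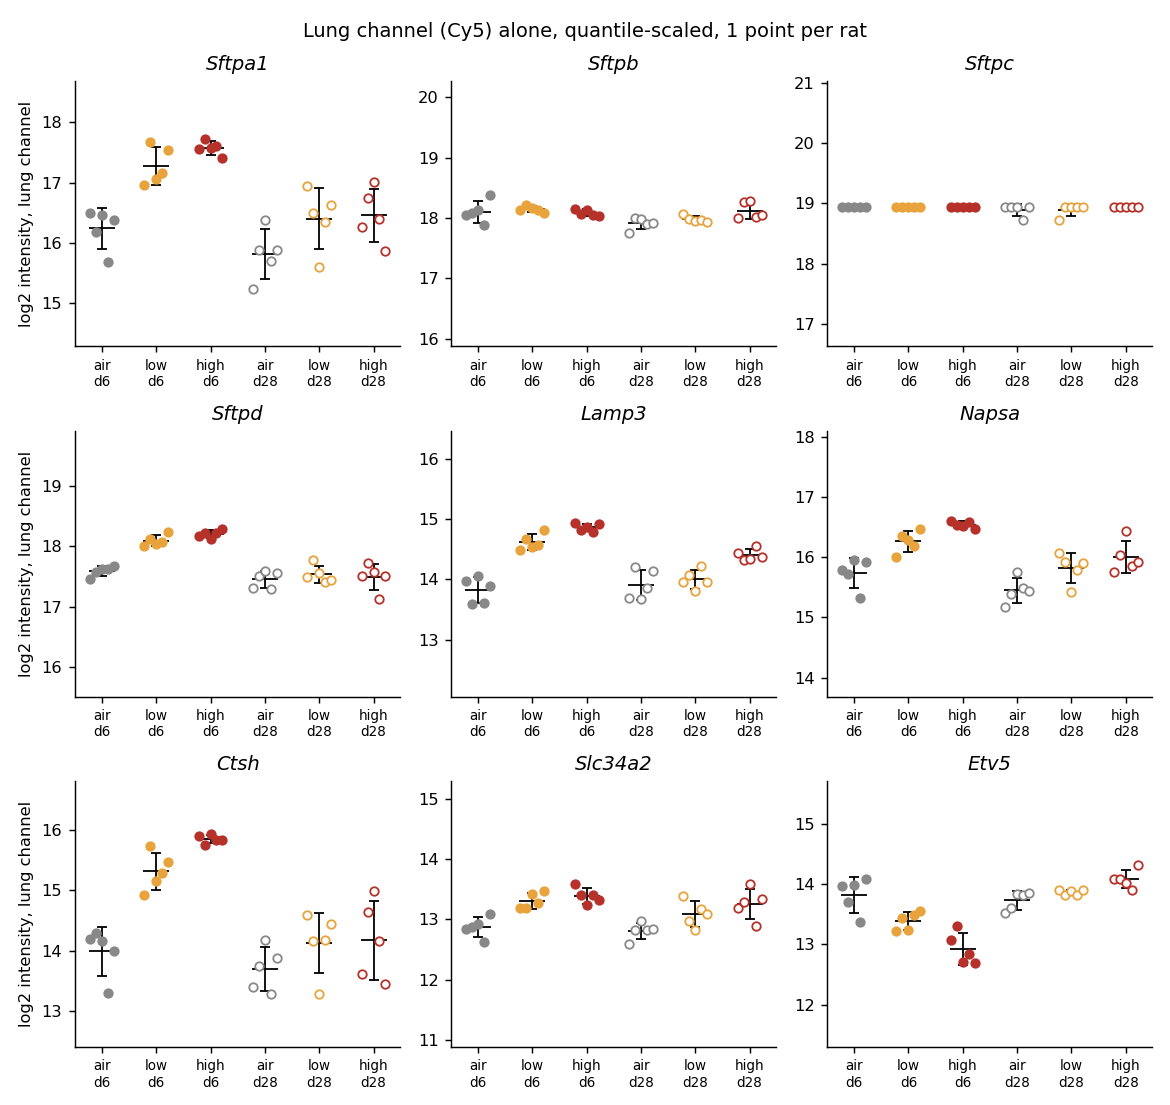
Quantile-scaled log2 intensity of the lung channel (y axis) of 9 genes in the 6 groups (x axis), with 1 point per rat and bars for the group mean and SD. Sftpa1, Sftpd and Lamp3 lie above air in all 10 dosed rats at day 6, and Sftpc is flat because the brightest probe takes the same quantile on nearly every array.

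Sftpa1, the gene of SP-A, showed the largest gap between the readings. In the lung channel its log2 intensities at day 6 were 16.50, 16.17, 16.46, 15.68 and 16.39 in air, 16.96, 17.68, 17.06, 17.15 and 17.54 at the low dose and 17.55, 17.73, 17.57, 17.61 and 17.41 at the high dose, so all 10 dosed rats lay above all 5 air rats. It was higher by 1.33 ± 0.22 (2.52-fold, adjusted p = 2.26e-05, limma) at the high dose and by 1.04 ± 0.22 (2.05-fold, adjusted p = 0.00246) at the low dose. On the ratio the same rats gave 6.04, 5.54, 6.15, 6.15 and 5.89 in air and 6.69, 6.07, 6.67, 6.25 and 6.07 at the high dose, ranges that overlapped. The intensity of Sftpa1 in the reference channel, which holds the same RNA on every array, was itself higher by 1.16 ± 0.27 (adjusted p = 0.0337) at the high dose.

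The reference channel gave calls for 0.727% of all genes at day 6 and the high dose, and Sftpa1 and Lamp3 were among them. Lamp3 was higher there by 0.21 ± 0.03 (adjusted p = 0.000457, limma) and at the low dose by 0.17 ± 0.03 (adjusted p = 0.0194; 0.157% of all genes passed). Over the 30 arrays the correlation of lung with reference intensity was 0.95 for Sftpa1, 0.90 for Lamp3 and 0.72 for Sftpd, against a median of 0.23 over all genes. For Napsa and Ctsh it was -0.40 and -0.58, and their differences were larger on the ratio than in the lung channel. The points of each correlation share arrays, scanner settings and scaling, and the source of the reference signal was not tested.

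**Figure D3:**
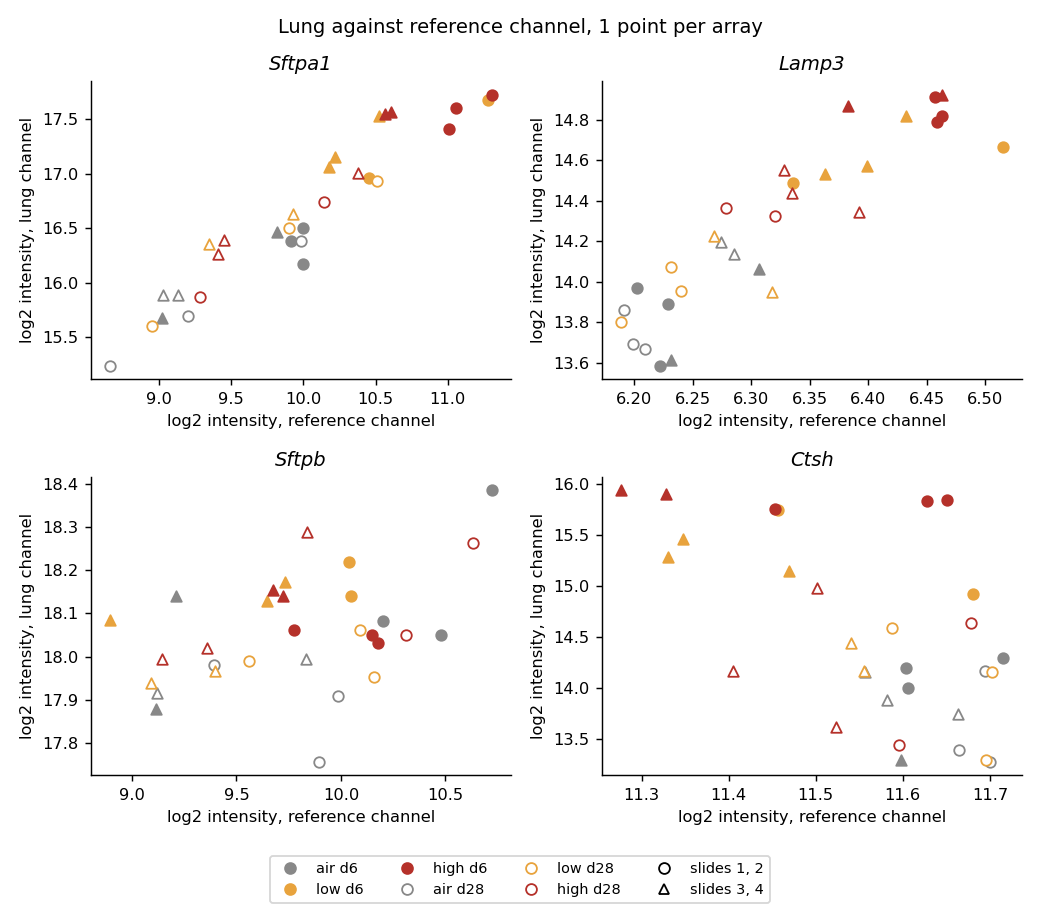
Quantile-scaled log2 intensity of the lung channel (y axis) against that of the reference channel (x axis) for 4 genes, with 1 point per array, filled for day 6 and open for day 28, and shaped by slide pair. Sftpa1 and Lamp3 rise together in both channels (r = 0.95 and 0.90), while Sftpb differs between slide pairs in the reference channel. In the lung channel Sftpb is nearly flat, with a within-group SD of 0.11 on this scaling and 0.15 on the 75th percentile scaling.

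Sftpd, the gene of SP-D, was higher in the lung channel by 0.62 ± 0.09 (adjusted p = 2.34e-06, limma) at the high and 0.50 ± 0.09 (0.000244) at the low dose. Its 5 air rats read 17.45, 17.58, 17.63, 17.62 and 17.67 and the low-dose rats 18.00, 18.12, 18.04, 18.07 and 18.24. The high-dose rats read 18.17, 18.22, 18.13, 18.22 and 18.29. No dosed rat reached down to the air range.

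Slc34a2, the phosphate transporter of the type II cell surface, was higher in the lung channel by 0.52 ± 0.11 (adjusted p = 0.000448, limma) at the high and 0.43 ± 0.11 (0.0117) at the low dose. Its air rats read 12.85, 12.87, 12.93, 12.63 and 13.08, the low-dose rats 13.18, 13.18, 13.42, 13.27 and 13.48 and the high-dose rats 13.59, 13.40, 13.24, 13.40 and 13.33, and the dosed groups lay wholly above air. Lamp3 was higher there by 1.04 ± 0.10 and 0.79 ± 0.10, with air rats at 13.58 to 14.06 and dosed rats at 14.49 to 14.92. Napsa and Ctsh were higher by 0.80 ± 0.13 and 1.87 ± 0.25 at the high dose, and Etv5 was lower, at -0.89 ± 0.12.

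Sftpb and Sftpc did not pass in the lung channel. Sftpb, which is needed for the surfactant film to form, differed by -0.02 ± 0.07 (95% confidence interval -0.17 to 0.13) at the high dose and by 0.04 ± 0.07 (-0.11 to 0.19) at the low dose. Its air rats read 18.05, 18.08, 18.14, 17.88 and 18.38 and its high-dose rats 18.15, 18.06, 18.14, 18.05 and 18.03, so the high-dose range lay inside the air range. Sftpc takes nearly the same quantile on every array, and its lung-channel difference was therefore read from the 75th percentile scaling, at 0.13 ± 0.18 (-0.24 to 0.49). Its unscaled lung intensity spanned only 434468 to 552313 over the 30 arrays, while array medians ranged from 216 to 432. Its within-group SD was 0.06 with quantiles and 0.29 with the 75th percentile. A dose difference and array scaling cannot be told apart in this value. The intervals of the high-dose difference in the quantile-scaled lung channel were 0.88 to 1.79 for Sftpa1 and -0.17 to 0.13 for Sftpb. The difference between the 2 genes was not tested. Sftpb also took the same quantile on several arrays, at 18.05 in air rat 1 and high-dose rat 78 and 18.14 in air rat 3 and high-dose rat 77. Its within-group SD was 0.11 with quantiles and 0.15 with the 75th percentile, so the width of its interval depends on the scaling.

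**Figure D4:**
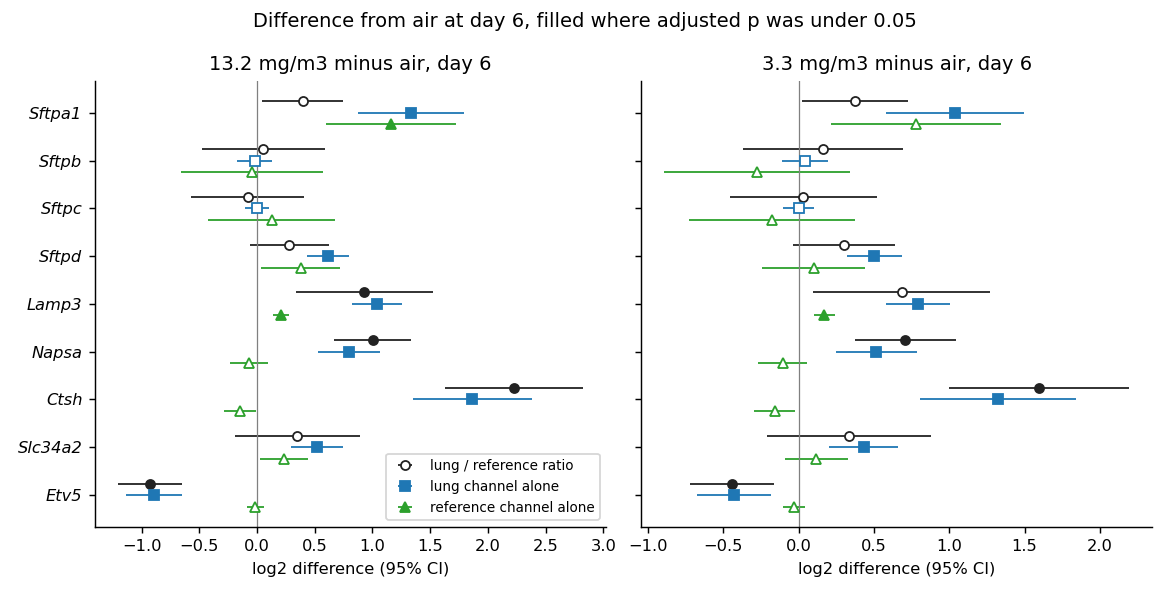
Log2 difference from air at day 6 (x axis, points with 95% confidence intervals) for 9 genes at the high (left) and low (right) dose, from the lung to reference ratio, the lung channel alone and the reference channel alone; filled symbols passed at adjusted p under 0.05. Sftpa1 reads 0.39 on the ratio, 1.33 in the lung channel and 1.16 in the reference channel at the high dose.

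The arrays lay on 4 slides, and the ratios of several of the 9 genes differed between them. Mean log2 ratios of Sftpc were 9.71, 9.79, 10.33 and 10.34 on slides 1 to 4, those of Slc34a2 were 5.44, 5.43, 6.21 and 6.12, and those of Lamp3 were 6.80, 6.89, 7.60 and 7.56. Slides 1 and 2 were low and slides 3 and 4 high, and reference intensities of Sftpc ran the other way, at 8.79, 9.02, 8.11 and 8.16. Every slide held all groups except slide 3, which held no day-28 air rat. With the slide as a block, 7 of the 9 genes passed on the ratio at the high dose (40.6% of all genes), adding Sftpa1 at 0.42 ± 0.08 (adjusted p = 0.000243), Sftpd at 0.29 ± 0.11 (0.036) and Slc34a2 at 0.36 ± 0.13 (0.0295).

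At the low dose the slide block gave 4 calls (9.16% of all genes), adding Sftpa1 at 0.29 ± 0.08 (adjusted p = 0.025, limma). Within slides 1 to 4 the high-dose difference of Ctsh was 1.96, 1.86, 3.16 and 2.25, that of Napsa 0.83, 0.99, 1.54 and 0.91, and that of Lamp3 0.59, 1.33, 1.14 and 0.80. Etv5 gave -0.74, -0.85, -0.31 and -1.41, and Sftpa1 0.10, 0.62, 0.54 and 0.52. These 5 genes kept 1 direction on all 4 slides, each of which held 1 or 2 rats of a group. For Ctsh, Napsa, Lamp3 and Etv5 that was fixed in advance, because their high-dose and air groups did not overlap. Slc34a2 also kept 1 direction, at 0.09, 0.48, 0.94 and 0.06. At the low dose Etv5 within slide 3 was 0.05, and on the other slides it was -0.66, -0.42 and -0.56.

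At day 28 none of the 9 genes passed on the ratio at either dose (limma), where 0.185% of all genes did at the high and 0.0109% at the low dose. The doses did not separate any of them either (0.141% of all genes passed, and none of the 9 had an unadjusted p under 0.05). At an unadjusted p under 0.05 there were 2 at the high dose, Napsa and Etv5, and 1 at the low dose, Napsa. Napsa ratios were 3.61, 4.12, 4.23, 3.85 and 4.23 in air, 4.44, 4.46, 3.95, 4.41 and 4.57 at the low dose and 4.47, 4.54, 5.11, 4.50 and 4.25 at the high dose. The high-dose rats lay just above the air rats, the only one of the 9 genes without overlap (1.5% of all genes), with a difference of 0.57 ± 0.16 (adjusted p = 0.139). Low-dose rat 54 was the lowest of its group.

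Etv5 ratios at day 28 were 0.77, 1.01, 1.16, 1.11 and 1.27 in air, 1.14, 1.19, 1.25, 1.18 and 1.27 at the low dose and 1.496, 1.38, 1.33, 1.21 and 1.54 at the high dose. The order of the group means was the reverse of day 6, with a high-dose difference of 0.33 ± 0.14 (adjusted p = 0.272, limma) that did not pass. Ctsh ratios were 1.13, 1.59, 1.93, 0.96 and 1.78 in air, 2.43, 1.95, 1.01, 2.05 and 2.42 at the low dose and 1.53, 2.38, 3.001, 2.15 and 1.19 at the high dose. The groups overlapped, and the high-dose rats lay further apart than the rats of the same dose at day 6, which lay between 3.85 and 4.36. The Ctsh difference at the high dose was 0.57 ± 0.29 (adjusted p = 0.353).

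The difference of the high-dose effect between the days was tested directly. It passed for Ctsh, whose effect was smaller at day 28 by -1.66 ± 0.41 (adjusted p = 0.00525, limma), and for Etv5, whose effect was higher at day 28 by 1.25 ± 0.19 (adjusted p = 2.2e-05), where 16.7% of all genes passed. With the slide as a block 5 genes passed (17.2% of all genes), as with 75th percentile scaling of the lung channel (13.4%). The second Etv5 probe gave 0.90 ± 0.21 (adjusted p = 0.0030). The corresponding low-dose difference passed for none of the 9 genes (1.95% of all genes), with 2 at an unadjusted p under 0.05. In the lung channel 1 passed with either scaling (2.62% of all genes with quantiles and 1.75% with the 75th percentile). For Ctsh it was -1.10 ± 0.41 (adjusted p = 0.251) and for Etv5 0.58 ± 0.19 (adjusted p = 0.145), the latter passing at 0.70 (adjusted p = 0.0327) without air rat 4 of day 6.

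In the lung channel, Lamp3 and Napsa passed at the high dose on day 28, where 0.651% of all genes did. Lamp3 read 13.69, 14.20, 13.66, 13.86 and 14.14 in air and 14.44, 14.32, 14.34, 14.55 and 14.36 at the high dose, groups that did not overlap (2.26% of all genes), and it was higher by 0.49 ± 0.10 (adjusted p = 0.0228, limma). Napsa was higher by 0.55 ± 0.13 (adjusted p = 0.0461), with overlap. With the 75th percentile scaling neither passed (adjusted p = 0.209 and 0.161; 0.223% of all genes). The high-dose effect differed between the days in this channel for Sftpd, Lamp3, Ctsh and Etv5 (19.7% of all genes), by -0.58 ± 0.12 for Sftpd and -0.55 ± 0.15 for Lamp3. Between the air groups of the 2 days none of the 9 genes passed on the ratio, and none had an unadjusted p under 0.05 (2.95% of all genes passed).

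Other genes of type II cells, their regulators, and genes of lipid synthesis, lamellar bodies and surfactant clearance by macrophages were read from lists. The lists were not limited to genes that only type II cells make. In each list the 3 called genes of smallest p (high dose, day 6) are named by rule, and further genes were chosen after their values were seen. Of 15 other type II cell genes, 9 rose and 1 fell at the high dose on day 6 and 3 rose at the low dose, with a median of 0.50 and 0.25. For comparison, 21.1% of all genes tested rose and 15.4% fell at the high dose, and 6.72% passed at the low dose. Fabp5, a fatty acid binding protein that activated macrophages also make, was at -2.14, -1.38, -1.51, -2.60 and -1.67 in air and at 0.80, 0.38, 1.41, 0.69 and 1.06 at the high dose, without overlap, and rose by 2.73 ± 0.25 (adjusted p = 1.48e-09, limma). S100g, a calcium-binding protein of type II cells in rodents, rose by 0.91 ± 0.18 at the high and 1.15 ± 0.18 at the low dose, and it was also higher in air rats at day 28 than at day 6, by 1.11 ± 0.18 (adjusted p = 0.000468). Lrrk2, a kinase abundant in type II cells, rose by 0.70 ± 0.13 at the high dose. Lpcat1, which makes the main phospholipid of surfactant, rose by 0.74 and 0.72, and Acoxl fell by 0.94 at the high dose. In the lung channel 8 rose and 2 fell at the high dose, where 39.1% of all genes passed.

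Lipid synthesis genes showed 10 of 20 higher and none lower at the high dose, and 8 higher and none lower at the low dose, with medians of 0.45 and 0.30, against 36.5% and 6.72% of all genes in either direction. With air rat 4 of day 6 left out, 8 were higher at each dose. Fasn, the fatty acid synthase, was at 1.78, 1.52, 1.91, 1.67 and 2.30 in air, 2.74, 2.71, 2.96, 3.06 and 2.84 at the low dose and 3.08, 2.58, 3.21, 2.89 and 2.59 at the high dose. The dosed groups did not overlap with air, and Fasn rose by 1.03 ± 0.14 and 1.02 ± 0.14 (adjusted p = 1.10e-06 and 8.59e-06, limma). Gpam, which starts glycerolipid synthesis, rose by 0.91 and 0.36, and Mlxipl, a transcription factor that responds to carbohydrate, by 0.80 and 0.46. Pcyt1a, the rate-limiting enzyme of phosphatidylcholine synthesis, differed by 0.02 and -0.00. After median centring of the ratios 6 of 20 passed at the high dose, near the 28.5% of all genes (12.4% higher, 16.1% lower), and 3 at the low dose (3.11% of all genes), all higher. The low-dose Gpam call was then lost (0.33, adjusted p = 0.107, limma), as it was in the lung channel alone (0.26, adjusted p = 0.11).

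Of 20 genes of lamellar body biogenesis and secretion, 8 rose and 2 fell at the high dose and 1 rose at the low dose, with a median of 0.27 at the high dose. The high-dose shares over all genes were 21.1% and 15.4%, and the low-dose count was near the 6.72% of all genes. With air rat 4 of day 6 left out, 7 rose and 1 fell at the high dose. P2ry2, the receptor through which extracellular ATP triggers surfactant secretion, was at 0.59, 0.78, 0.89, 0.53 and 0.89 in air and 2.21, 1.93, 2.60, 2.35 and 2.61 at the high dose. It rose by 1.60 ± 0.14 (adjusted p = 4.45e-10, limma) there and by 0.71 ± 0.14 at the low dose, with no overlap in either case. Cd63, a membrane protein of lysosome-related organelles, rose by 0.60, and Ap3b1, which sorts cargo to those organelles, by 0.38. Rab38, which acts in lamellar body formation in rats, differed by 0.01. After median centring 2 rose and 1 fell, below the 28.5% of all genes, and the Ap3b1 call was lost (0.26, adjusted p = 0.124, limma).

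Among 21 regulators of type II cells, 4 rose and 7 fell at the high dose, with a median of -0.21, and 1 rose at the low dose. The number that rose was near the 21.1% of all genes, the low-dose count was near 6.72%, and 15.4% of all genes fell at the high dose. With air rat 4 of day 6 left out, 4 rose and 5 fell at the high dose. Klf5 and Nfib, transcription factors of lung maturation, fell by 0.76 and 0.88, Fgfr3 fell by 0.56 and Etv1, an ETS factor related to Etv5, fell by 0.47. Erbb3, a receptor for neuregulins, rose by 0.62, and Fgfr2, the receptor for Fgf7, by 0.40. Dusp6, an inhibitor induced by the same pathway as Etv5, fell by 0.38, and Spry2 and Spry4, of the same kind, differed by -0.33 and -0.21 without passing. Nkx2-1, the transcription factor that activates surfactant genes, differed by 0.13 and Etv4 by 0.18, and neither passed.

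Genes of surfactant clearance by macrophages moved both ways, with 3 of 10 higher and 4 lower at the high dose (21.1% and 15.4% of all genes) and 1 higher and 3 lower at the low dose (4.97% and 1.75%). Pparg, which drives lipid handling in alveolar macrophages, was at 0.05, -0.36, 0.19, 0.03 and -0.05 in air and -1.91, -1.997, -2.46, -1.78 and -1.84 at the high dose. It fell by 1.97 ± 0.20 (adjusted p = 1.34e-08, limma), and Abcg1, a lipid exporter, and Pla2g15, a lysosomal phospholipase, fell by 1.41 and 1.14. Msr1, a scavenger receptor, rose by 1.97 ± 0.24 and Csf2ra, a receptor subunit for GM-CSF, by 1.08 ± 0.20, from 4 high-dose rats because 1 spot was left out as an outlier. At day 28 Pparg differed by 0.89 ± 0.20 (adjusted p = 0.0592) at the high dose, and its effect differed between the days by 2.85 ± 0.29 (adjusted p = 3.52e-08).

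At day 28 none of these 5 lists held a gene that passed at either dose (limma). At an unadjusted p under 0.05, the high dose gave 6 of 15 other type II cell genes, 4 of 20 lipid synthesis genes, 2 of 21 regulators, 2 of 10 clearance genes and none of the lamellar body genes, where 15.1% of all genes did. The low dose gave 2 clearance genes and none elsewhere, where 5.96% of all genes did.

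**Figure D5:**
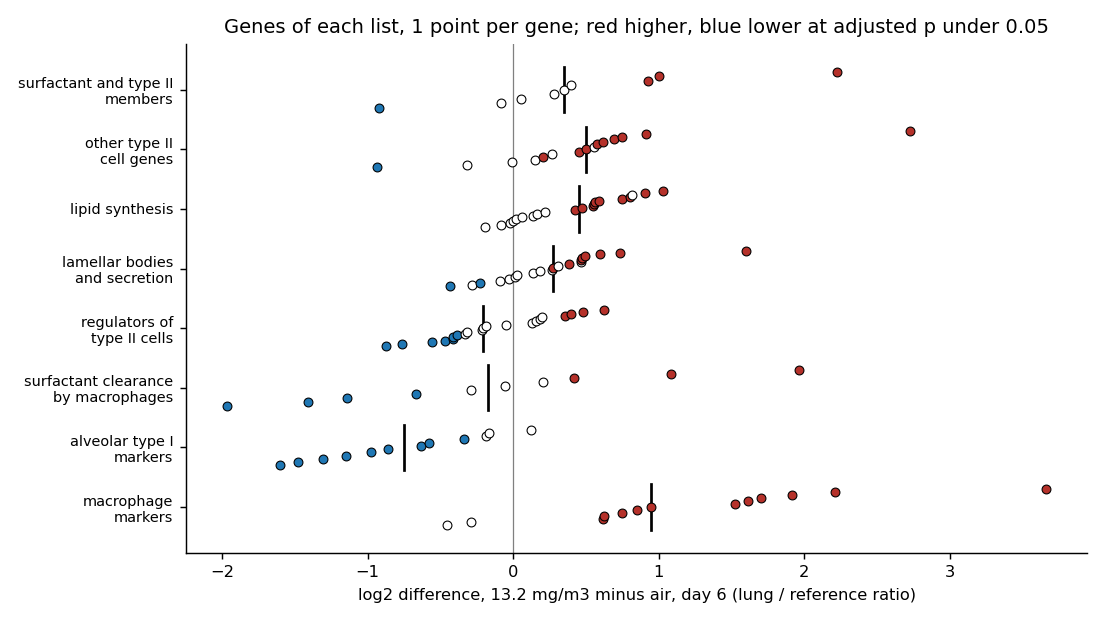
Log2 difference of the high dose from air at day 6 on the ratio (x axis) for each gene of 8 lists (rows), with 1 point per gene, red for higher and blue for lower at adjusted p under 0.05, open for not passed, and a bar at each list's median. The median is 0.35 for the surfactant and type II genes, 0.45 for lipid synthesis, -0.75 for type I markers and 0.95 for macrophage markers.

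Markers of other cells moved at the same time, in a comparison where 21.1% of all genes rose and 15.4% fell. At the low dose 4.97% of all genes rose and 1.75% fell. Macrophages also make Ctsh, and 11 of 13 macrophage markers rose and none fell at the high dose, and 2 rose at the low dose. Their list means were 0.17 to 0.37 in air, 0.27 to 1.19 at the low and 0.73 to 2.04 at the high dose. Of 8 mature dendritic cell markers, 6 rose and none fell at the high dose and 3 rose at the low dose, with list means of 0.51 to 0.83 in air, 1.26 to 1.46 at the low and 1.23 to 1.76 at the high dose. The part of these and other cells in the values of Ctsh, Fabp5, Lamp3 or any gene of the lists was not tested.

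Type I cell markers were lower for 9 of 12 genes at the high dose and for 1 at the low dose (1.75% of all genes), with no gene higher. Their list means were 3.98 to 4.23 in air, 3.74 to 4.03 at the low and 2.99 to 3.59 at the high dose. Of 8 neutrophil markers 7 rose and 1 fell, and 8 of 9 proliferation markers rose. Epithelial genes shared by several cell types gave 3 higher and 1 lower of 12, club cell markers 2 and 1 of 9, ciliated cell markers 1 and 2 of 8 and genes of transitional epithelium 2 and 3 of 10. The first 3 of these counts were near the 36.5% of all genes that passed. With air rat 4 of day 6 left out, shared epithelial genes gave 4 higher and 1 lower and transitional genes 4 and 3. Macrophage markers then gave 10 higher. None of 8 heart muscle markers passed (2 had an unadjusted p under 0.05), with a median of -1.38, and of -0.25 without air rat 4.

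For each of the 9 genes, the genes with the most similar ratio over the 30 rats were read among 11324 named genes. Nearest to Ctsh were Clic1 (r = 0.97) and Cblc (0.97), nearest to Napsa Cblc (0.95) and Nectin2 (0.95), and nearest to Etv5 Fbxw2 (0.92) and Ajuba (0.90), and in the lung channel alone these stayed between 0.87 and 0.95. Nearest to Sftpa1 were Defb4 (0.93) and Pla2g1b (0.92), to Sftpd Cd74 (0.90) and Defb4 (0.88), to Lamp3 Pigr (0.92) and Crb3 (0.92), and to Slc34a2 Pla2g1b (0.92) and Cldn18 (0.89). For Sftpc they were Nkx2-1 (0.94) and Cldn5 (0.93), and for Sftpb Slc22a5 (0.76). In the lung channel alone these 3 values were 0.03, -0.11 and -0.23. Sftpc takes nearly the same quantile on every array in that channel, so 0.03 and -0.11 cannot show whether its similarity held there. All these points share arrays and a reference channel, and the values are descriptions.

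The 9 genes differed in how far rats of 1 group lay apart, and the reading changed with the channel. The within-group SD of the ratio was 0.43 for Sftpb, 0.48 for Lamp3 and 0.45 for Slc34a2, against 0.11, 0.16 and 0.18 in the quantile-scaled lung channel alone. The median gene had 0.18 in both. Ctsh was at 0.49 and 0.42, far above that median in both, and Etv5 at 0.22 and 0.19, close to it. Sftpa1 was at 0.28 on the ratio and 0.37 in the lung channel.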

How the data were processed

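Lung RNA of 30 rats was hybridised with a common reference on 2-colour arrays. The authors deposited scanner files made with Agilent Feature Extraction 11.0.1.1, per the file headers, whose median spot intensity was used, and a table of log2 ratios, whose scale and direction were checked against the scanner values. Control spots and outlier spots were left out. Intensities were corrected by normexp (offset 50) and normalized by loess within arrays in limma 3.58.1 (R 4.3.3). Probes well above background in the lung channel on at least 5 arrays were kept, and the brightest probe stood for a gene. Probes were named through transcript accessions, and 11331 of 18421 genes tested had a symbol. All 6 groups entered 1 limma fit with Benjamini-Hochberg adjustment over all genes in each of 9 comparisons, and errors are standard errors unless stated. The code was tested on simulated data. Arrays have no read depth, and the number of rats limits the precision. P-values measure the spread between rats with 1 array each, and without a slide term that spread also holds differences between arrays and slides.

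The members and gene lists were chosen with earlier results of these data known. All members were named, with the 3 called genes of smallest p in each of 5 pathway lists at the high dose on day 6, and the 2 genes most correlated with each member, of which 1 is not reported here. Alternatives changed the background correction, normalization, filter, probe rule, slide term, samples in the fit and size of change, used the authors' deposited log2 table, or left out each rat. The labels give no pairing of rats between groups.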

Additional observations from a re-analysis of the deposited data

Results flagged for a closer look

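Ctsh in day-6 air rat 4 was the lowest of its group, with a log2 ratio of 1.11 against 1.84 in the nearest air rat. It was picked out because its gap to the nearest rat was large for the range of its group. Napsa in day-28 low-dose rat 54 was picked out in the same way, at 3.95 against 4.41 in the nearest rat. These were 2 of 54 groups of 5 rats examined, and chance flags about 1 in 20 groups. Air rat 4 and low-dose rat 54 also had the highest mean of the heart muscle markers in their groups, at 4.87 and 1.87. A link between that signal and the flagged values was not tested.

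The high-dose effect differed between the days by test for both Ctsh, at -1.66 on the log2 scale (day 28 minus day 6, adjusted p = 0.00525, limma), and Etv5, at 1.25 (adjusted p = 2.2e-05, limma). Ctsh was higher than air at day 6 by 2.23 and at day 28 by 0.57, and Etv5 was at -0.93 and 0.33.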

How the results depend on the processing

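No paired analysis was possible because the animal numbers differ between all groups. The high dose on day 6 changed 4 of the 9 genes, and 7 in the lung channel alone, with the slide as a block and with 75th percentile scaling of the lung channel (chosen after seeing the data), and 4 to 5 when single rats were left out. At the low dose 3 passed, against 1 after median centring, 7 in the lung channel, 6 with 75th percentile scaling and 2 to 3 without single rats. Between the doses 1 passed, and 0 did after median centring, with the mean of probes or at a change of at least 1.5-fold, and 0 to 1 without single rats. At day 28 the lung channel gave 2 at the high dose against 0. The difference of high-dose effects passed for 2 genes, and for 4 in the lung channel, 5 with the slide block and 5 with 75th percentile scaling, and for 2 without any single rat. The low-dose difference passed for 0, and for 1 in the lung channel, 1 with 75th percentile scaling and 0 to 1 without single rats. The causes were not tested. Lamp3 at the high dose on day 6 reversed to -0.0923 with the processed signals, and Etv5 at the low dose reversed to 0.0493 within slide 3. The low-dose Etv5 call was lost after median centring (adjusted p = 0.287, limma), without the dim-probe filter (0.0594), with the mean of probes (0.0548), in a fit of only the groups compared (0.117) and with 75th percentile scaling (0.0622). Lamp3 at the low dose passed in the fit of only the groups compared (adjusted p = 0.0422, limma).

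Over all genes, the high dose on day 6 gave 6728 calls and 2733 at 1.5-fold. At the low dose 1238 passed, with 573 after median centring and 539 at 1.5-fold. Between the doses on day 6 the counts were 2188, 1008 and 824, and 1353 to 2591 without single rats. At day 28 the high dose gave 34, with 8 after median centring, 19 at 1.5-fold, 55 with processed signals, 120 in the lung channel and 11 to 326 without single rats. The low dose gave 2, and 5 with processed signals and in the lung channel, and 2 to 6 without single rats, and the doses differed in 26 genes and in 17 at 1.5-fold. A fit of only the groups compared gave 12 at the high dose, 9 between the doses on that day and 1161 between the air groups. Between the air groups 543 passed, against 127 after median centring, 206 at 1.5-fold, 356 with 75th percentile scaling and 180 to 2495 without single rats. The differences of effects gave 3084 and 359, with 1623 and 159 after median centring and 1958 at 1.5-fold for the high dose. Signal over background limits Lamp3 and Slc34a2, whose reference spots were well above background on 12 and 24 of 30 arrays.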
